A study of Mus musculus with 64 samples.

Results

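Loss of the histone methyltransferase G9a was examined in mouse embryonic stem cells (mESCs) of strain TT2 by setting the G9a-knockout line SG against the control line 33-6. The comparison holds the libraries that the labels give to SG without 4-hydroxytamoxifen (genotype G9a-KO, labelled NT) and to 33-6 without it (genotype control, labelled NT), chosen by these labels and matched by lot number. These are 16 of the 64 libraries of the series. Lots 1, 4 and 7 each gave an H3K9me2 and an input library per genotype (n = 3), and lots 1 and 4 also gave a Lamin B1 library (n = 2). The whole series has 4 lines with and without 4-hydroxytamoxifen (4OHT), which is 8 genotypes. Line 33-6 carries Setdb1 in a form that 4OHT deletes. SG is labelled G9a;Setdb1-DKO after 4OHT, so the labels treat it as carrying that form too. By the labels neither group here received the agent, and neither genotype name includes a loss of Setdb1. SG was newly generated for the study. Each genotype is 1 line, and the sources used here do not say whether SG came from 33-6 or from a single clone. What a lot is a lot of is not stated either, so the spread that the p-values are set against may be technical.

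G9a, whose gene is named Ehmt2 (chromosome 17, positions 34898463 to 34914073 in the RefSeq annotation of GRCm38.p6), works with its partner GLP to mono- and dimethylate lysine 9 of histone H3. The dimethyl form, H3K9me2, covers broad domains of silent euchromatin, and many of these domains lie at the nuclear periphery. Lamin B1 is a structural protein of the nuclear lamina, the meshwork under the inner nuclear membrane, and its ChIP signal marks lamina-associated domains.

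Mouse chromatin was mixed with that of S2 cells, a Drosophila line, at 9 parts of mouse DNA to 1 part of fly DNA before immunoprecipitation. The number of mouse reads per fly read then follows the total mouse signal of a library, which depth scaling would hide. It also follows the mix of mouse and fly chromatin actually reached, which the input libraries measure. Their mouse to fly ratio ran from 7.24 to 15.9 over the series. The normalised ratio used below is the mouse to fly ratio of a ChIP library divided by that of the input library of the same line and lot. It is a total over the genome, so no gene or region is resolved, and the loss of G9a could not be checked at the gene. For H3K9me2 the labels name 1 antibody and none specific to fly chromatin. For Lamin B1 they name the Lamin B1 antibody together with one that binds H2Av, a histone variant of the fly. A level of the normalised ratio therefore cannot be compared between the antibodies. Log2 differences between genotypes are given side by side, but each includes any unspecific mouse background of its antibody, which was not measured.

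Mapped reads numbered 20.5 M to 186 M per library. Counting error alone gave each normalised ratio a 95% interval no wider than ±0.219%, if each read pair is independent. The spread between lots was far wider and set the precision of the comparisons.

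The fly share of the reads shows the shift before any division by the input. It is another form of the mouse to fly ratio of each library, not separate evidence. In H3K9me2 ChIP from G9a-KO cells, fly reads made up 37.2% of mapped reads in lot 1, 27.4% in lot 4 and 32.2% in lot 7, against 6.09%, 5.42% and 11.0% in control cells. The lowest G9a-KO library lay well above the highest control library. The Wilson 95% interval of these shares was at most ±0.0296 percentage points. In the inputs, fly reads made up 8.75%, 11.6% and 6.47% in G9a-KO cells, against 7.43%, 6.13% and 6.42% in control cells. The fly share of H3K9me2 ChIP was thus 4.26, 2.35 and 4.98 times that of the matching input in G9a-KO cells, against 0.819, 0.884 and 1.71 times in control cells. Lot 7 was the only control lot in which the fly share was higher in H3K9me2 ChIP than in input. Lamin B1 ChIP gave fly shares of 14.4% in lot 1 and 15.0% in lot 4 in G9a-KO cells, against 8.09% and 7.17% in control cells, a smaller step that also did not overlap.

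**Figure D1:**
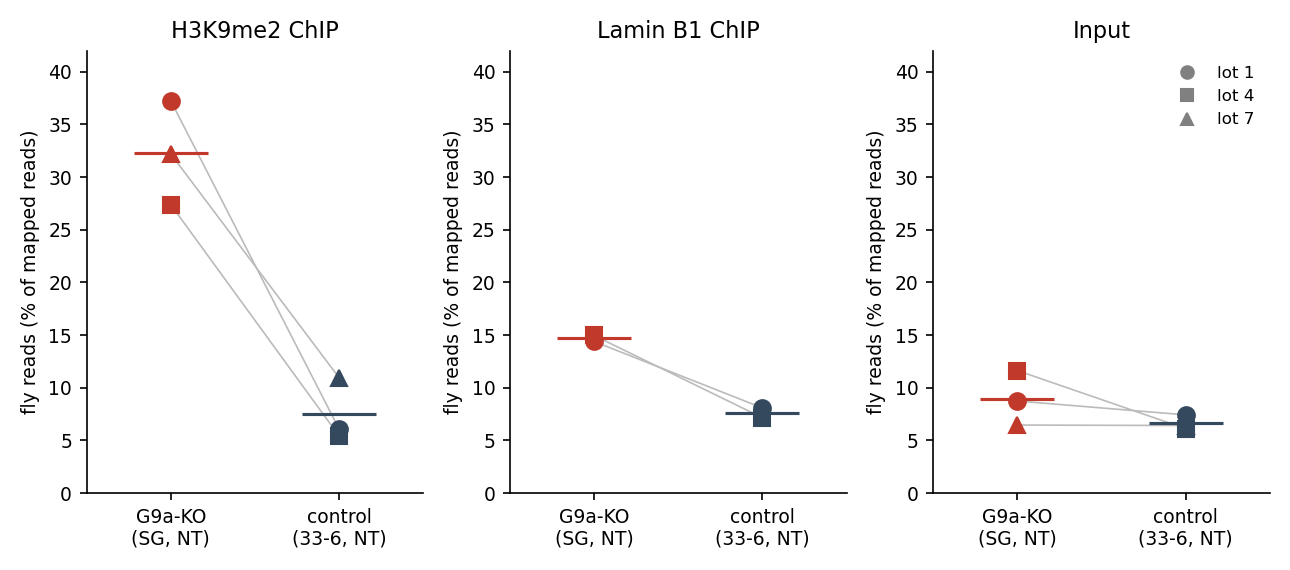
Share of mapped reads that came from the fly spike-in (percent, y axis) in H3K9me2 ChIP, Lamin B1 ChIP and input libraries of G9a-KO cells (left in each panel) and control cells (right). Each symbol is 1 library, symbols mark lots, grey lines join libraries of the same lot and short bars are means. The H3K9me2 shares of 27.4% to 37.2% in G9a-KO cells lie above the 5.42% to 11.0% of control cells, while the lot 7 inputs coincide.

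Total H3K9me2 was lower in G9a-KO cells in all 3 lots. Normalised ratios for lots 1, 4 and 7 were 0.162, 0.349 and 0.146 in G9a-KO cells, against 1.24, 1.14 and 0.558 in control cells. The groups did not overlap, and the lowest control library stood 1.60-fold above the highest G9a-KO library. The mean was 0.219 ± 0.113 in G9a-KO cells and 0.979 ± 0.368 in control cells (SD, n = 3 each). On the log2 scale the difference was −2.19, which is 21.9% of the control level by geometric means. Its 95% interval, from the SD pooled over all 8 genotypes without a lot term, was −3.88 to −0.51. A lot term narrowed it to −3.20 to −1.19, while the exact sign-flip p over 3 lots was 0.25, the smallest possible. By exact two-sided permutation p was 0.1, the floor for 3 against 3 libraries, and 0.33 after adjustment over the 4 comparisons of G9a-KO with control. The size of this log2 difference is called the fall below.

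The fall differed between lots more than the counting error. Across lots 1, 4 and 7 the H3K9me2 difference came to −2.94, −1.71 and −1.94 on the log2 scale, which leaves 13.0%, 30.7% and 26.1% of the control level, any unspecific mouse background included. Lot 1 had the largest fall, and its G9a-KO library was the shallowest ChIP library of the series, with 20.5 M reads. The smaller falls of the other lots went with different libraries. In lot 4 the G9a-KO value was the highest of its 3 lots. In lot 7 the G9a-KO value was close to that of lot 1, and the control value was the lowest of its 3 lots. The input-corrected H3K9me2 ratio was also lowest in lot 7 in all 8 genotypes of the series. Without input, the lowest G9a-KO lot was lot 1, at 1.69 mouse reads per fly read against 2.11 in lot 7. With medians over lots the difference was −2.82 (exact permutation p = 0.2), because the median control library was that of lot 4 and the median G9a-KO library that of lot 1.

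Among the 24 H3K9me2 libraries of the series, ranked from the lowest normalised ratio, the G9a-KO libraries took places 7, 8 and 12, and the control libraries took places 15, 22 and 23. By this ratio the lot 4 library of G9a-KO was the highest of the 12 libraries without G9a. Without input, its 2.65 mouse reads per fly read lay below the 2.96 of G9a;Setdb1-DKO in lot 4. The other 9 G9a-deficient libraries ran from 0.0166 to 0.264, and the other 9 G9a-intact libraries from 0.394 to 1.86.

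Lamin B1 signal was also lower in G9a-KO cells in both lots, by much less. The normalised ratio was 0.570 in lot 1 and 0.748 in lot 4 in G9a-KO cells, against 0.912 and 0.846 in control cells. The groups did not overlap, but the lowest control library stood only 1.13-fold above the highest G9a-KO library. The mean was 0.659 ± 0.126 in G9a-KO cells and 0.879 ± 0.0466 in control cells (SD, n = 2 each). The log2 difference of −0.43 is 74.3% of the control level by geometric means, and the 95% interval of −1.13 to 0.28 from the pooled SD includes 0. For 2 against 2 libraries the exact two-sided permutation p cannot go below 0.33, which was its value before and after adjustment. The log2 differences of lots 1 and 4 were −0.68 and −0.18, which leaves 62.5% and 88.4% of the control level. No Lamin B1 library of lot 7 was analysed here.

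**Figure D2:**
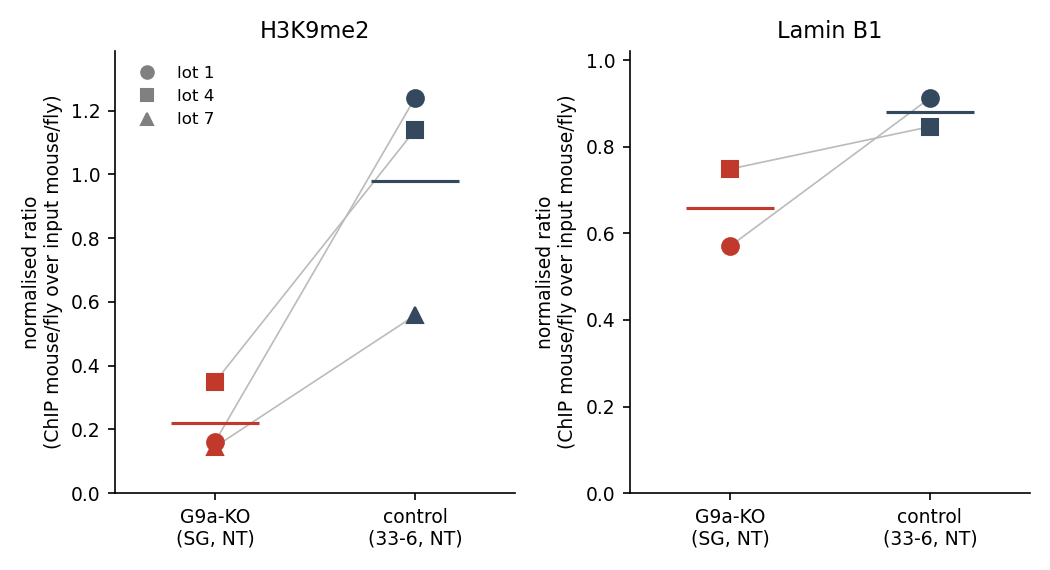
Normalised ratio (ChIP mouse to fly ratio over input mouse to fly ratio, y axis from 0) of H3K9me2 (left panel) and Lamin B1 (right panel) in G9a-KO and control cells. Each symbol is 1 library, grey lines join lots and short bars are means. In every lot the G9a-KO library lies below its control library: H3K9me2 was 0.146 to 0.349 in G9a-KO and 0.558 to 1.24 in control cells, and Lamin B1 was 0.570 and 0.748 in G9a-KO and 0.912 and 0.846 in control cells.

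The inputs, which both antibodies are divided by, differed between the lines in a lot-dependent way. For lots 1, 4 and 7 the input mouse to fly ratio was 10.4, 7.59 and 14.5 in G9a-KO cells, against 12.5, 15.3 and 14.6 in control cells. Its log2 differences were −0.26, −1.01 and −0.01 in the same order of lots, so most of the input difference came from lot 4. In that lot the G9a-KO input was the lowest but 1 of all 24 inputs of the series, and the control input was the highest but 1. The mean was 10.8 ± 3.45 in G9a-KO cells and 14.1 ± 1.48 in control cells (SD, n = 3 each), and the groups overlapped. Averaged over lots the inputs differed by −0.43 on the log2 scale, and the 95% interval ran from −0.99 to 0.13 (exact permutation p = 0.2, adjusted p = 0.33). With lot as a term of the model, the interval was −0.79 to −0.07, which leaves out 0, while the exact sign-flip test over 3 lots gave its smallest possible p of 0.25.

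Without division by the input, the H3K9me2 ChIP libraries held 1.69, 2.65 and 2.11 mouse reads per fly read in lots 1, 4 and 7 of G9a-KO cells, against 15.4, 17.4 and 8.13 in control cells. Log2 differences were then −3.19, −2.72 and −1.95 in these lots, averaging −2.62 with bounds of −3.92 and −1.32 at 95% (exact permutation p = 0.1). The input changed the lot 4 difference most and left that of lot 7 almost as it was. The order of the lots changed as well: lot 4 had the smallest H3K9me2 fall with input, and lot 7 had the smallest without it. The G9a-KO libraries were closer to each other without input, with an SD of 0.33 on the log2 scale against 0.69 with it. In control cells the SD was 0.59 without input and 0.63 with it.

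The Lamin B1 libraries held 5.94 and 5.68 mouse reads per fly read in lots 1 and 4 of G9a-KO cells, against 11.4 and 13.0 in control cells. Log2 differences without input were thus −0.93 and −1.19 in these lots, and their mean of −1.06 is 47.9% of the control level. Its 95% interval was −1.70 to −0.42, which leaves out 0, whereas the input-corrected interval includes it. Values without input also hold any difference between the lines in the mix of mouse and fly chromatin. The exact permutation p was 0.33 with and without input, since 2 against 2 libraries allow no smaller value. The mean Lamin B1 difference was thus −0.43 with input correction and −1.06 without it, and in lot 4 alone −0.18 with it and −1.19 without it. The direction was the same in each lot under both forms.

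**Figure D3:**
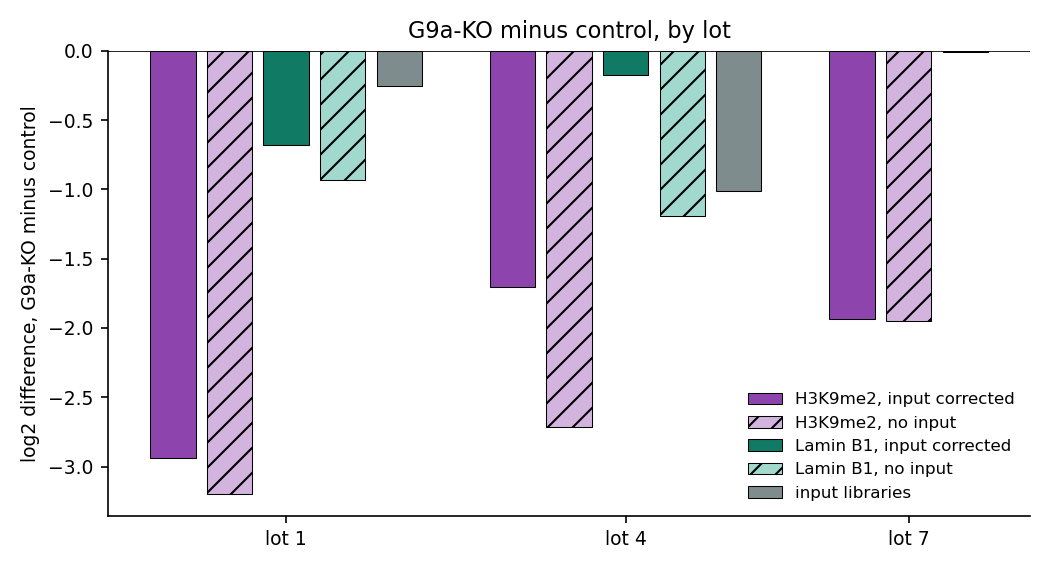
Log2 difference of G9a-KO minus control (y axis) in each lot, for H3K9me2 and Lamin B1 with the input correction (solid) and without it (hatched), and for the input libraries themselves (grey). Each bar is 1 pair of libraries, and lot 7 has no Lamin B1 bars. The grey bar of lot 4, at −1.01, equals the gap between the solid and the hatched bar of each antibody in that lot.

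Set side by side, the H3K9me2 fall exceeded the Lamin B1 fall in both lots that have the pair. Any difference in unspecific background between the antibodies is part of this comparison and was not tested. Within a lot the same input libraries divide both antibodies, so the difference between the 2 falls is the same number with and without input. With its sign, the log2 H3K9me2 difference minus the Lamin B1 difference came to −2.26 and −1.53 for lots 1 and 4. The fold reduction of H3K9me2 was thus 4.79 and 2.88 times that of Lamin B1. The mean log2 value was −1.89, with a 95% interval of −3.02 to −0.77 from the SD pooled over the 8 genotypes. The exact permutation p, before and after adjustment, was 0.33, the floor for 2 against 2 values.

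The quotient of the 2 falls, unlike their difference, depended on the input. With input, the log2 fall of H3K9me2 was 4.33 times that of Lamin B1 in lot 1 and 9.63 times in lot 4. The lot 4 quotient divides by a Lamin B1 difference of only −0.18. Since the interval of the mean Lamin B1 difference with input includes 0, these quotients are not bounded. Without input it was 3.42 times in lot 1 and 2.29 times in lot 4. The order of the lots by this quotient was therefore opposite under the 2 forms. Averaged over lots 1 and 4, the log2 differences were −2.32 for H3K9me2 and −0.43 for Lamin B1 with input, and −2.96 and −1.06 without it.

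The same pair of lines was also profiled after 800 nM 4OHT for 96 h, where SG is G9a;Setdb1-DKO and 33-6 is Setdb1-KO. Setdb1 trimethylates H3K9, mainly at retroelements. The input-corrected H3K9me2 difference of G9a-KO against control, −2.19 on average and −2.94 to −1.71 over 3 lots, compares with −2.66 on average and −2.81 to −2.56 in the 4OHT pair. The untreated difference minus the 4OHT one was 0.46, with a 95% interval of −1.92 to 2.84 (exact permutation p = 0.4, adjusted p = 0.8 over 4 comparisons of this kind). With lot as a term of the model the interval was −0.96 to 1.88. Without input the value was −0.12, opposite in sign. Leaving out lots or single libraries gave 0.14 to 0.88, with 0.83 without lot 1 of either G9a-KO or control and 0.22 without lot 4 of either. A difference between these backgrounds was not detected, and the interval is wide enough to hold a sizeable one in either direction.

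For Lamin B1, the differences of lots 1 and 4 were −0.68 and −0.18 without 4OHT, against −0.12 and −0.94 after it. The lot with the larger Lamin B1 fall was thus lot 1 without 4OHT and lot 4 after it. The means were −0.43 without 4OHT and −0.53 after it, and their difference was 0.10 with a 95% interval of −0.89 to 1.10 (exact permutation p = 1, adjusted p = 1). Without input this difference was −0.80 and opposite in sign. The fall was then larger without 4OHT in both lots, at −0.93 and −1.19, against −0.20 and −0.31 after 4OHT (exact permutation p = 0.33, the floor).

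Lines that also lack Suv39h1 and Suv39h2, which trimethylate H3K9 in pericentromeric heterochromatin, give a further pair, 3S1G (G9a;Suv39h1/2-TKO) and SE (Suv39h1/2-DKO). The H3K9me2 difference in that pair was −3.45 on average, from −4.46 to −2.68 over the lots. The difference between the pairs was 1.26, with a 95% interval of −1.13 to 3.64 (exact permutation p = 0.2, adjusted p = 0.8). A model that includes lot narrowed these bounds to −0.16 and 2.68, on either side of 0. The difference was 0.62 without lot 7 and 0.75 without the lot 7 library of either G9a;Suv39h1/2-TKO or Suv39h1/2-DKO. With all lots but no input it was 0.84 (exact permutation p = 0.3). The submitters' processing notes name a read trimmer for SE and 3S1G and not for SG and 33-6, and its part in this difference was not tested. Lamin B1 differences were −1.12 in lot 1 and −0.02 in lot 4 in that pair, with a mean of −0.57. The difference from the SG and 33-6 pair was 0.14, with a 95% interval of −0.85 to 1.14 (exact permutation p = 1, adjusted p = 1), and it was −0.47 without input. The H3K9me2 difference minus the Lamin B1 difference averaged −1.89 in untreated SG and 33-6 and −2.16 in these lines after 4OHT. For 3S1G and SE it averaged −2.37 untreated and −2.49 after 4OHT. A larger fall of H3K9me2 than of Lamin B1 was thus not particular to G9a loss alone.

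**Figure D4:**
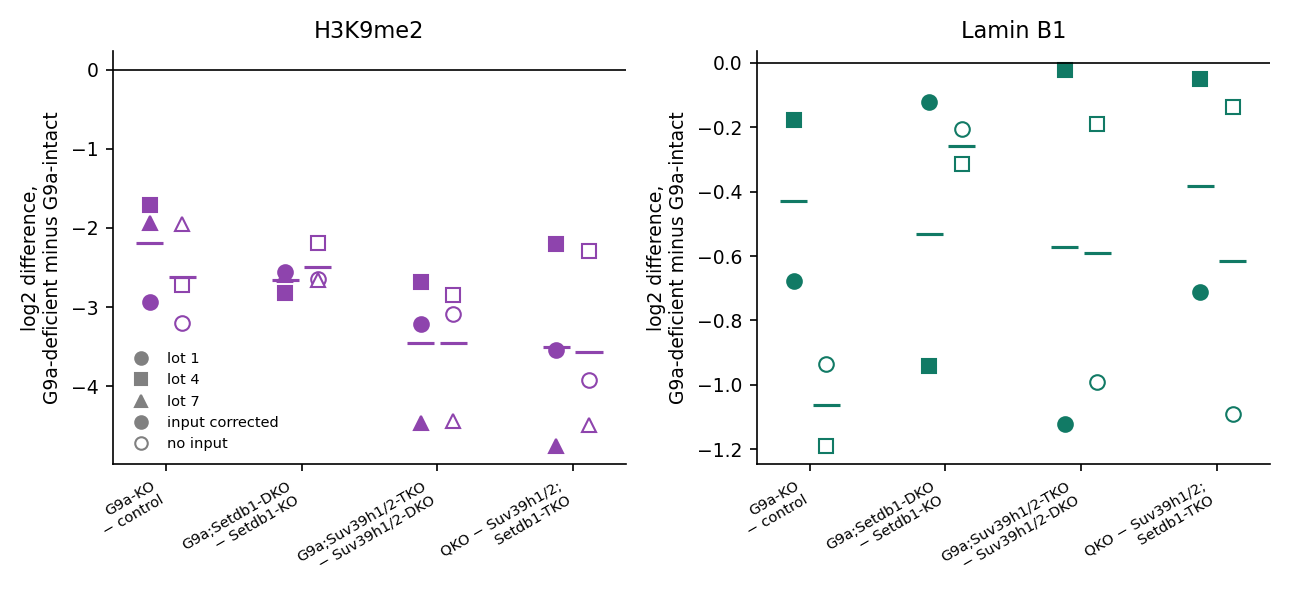
Lot-matched log2 differences between G9a-deficient and G9a-intact lines (y axis) for H3K9me2 (left) and Lamin B1 (right), in the untreated SG and 33-6 pair (leftmost in each panel) and in the pairs that also lack Setdb1, Suv39h1/2 or both (QKO is the line 3S1G after 4OHT). Filled symbols are input corrected, open symbols are not, and short bars are means. Every symbol lies below 0, and the Lamin B1 mean of the untreated SG and 33-6 pair is −0.43 with input and −1.06 without it.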

How the data were processed

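Spike-in ChIP-seq was run with paired reads of 150 nt, per the labels' protocols. The deposited table gives each library's read count, as whole numbers, on the mouse build mm10 and the fly build dm6. The submitters' processing notes name Bowtie2, SAMtools and deepTools 3.5.2, and for all 32 samples of lines SE and 3S1G also fastp 0.23.4, a read trimmer. The sources used here do not state how reads were filtered or duplicates removed. Since all 160 counts are even, mates were taken to have been counted separately, and pairs were the unit of counting error. The deposited mouse to fly ratio and scaling factor, per the file headers, equal those computed from the counts in 40 of 40 entries (relative tolerance 1e-09).

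Ratios were compared as log2 values. Tests were exact two-sided permutations of labels, with a threshold of 0.05 and Benjamini-Hochberg adjustment over 4 comparisons of G9a-KO with control and over 4 comparisons between backgrounds, which permuted lot-matched differences. Intervals of 95% used the SD pooled over 8 genotypes (16 degrees of freedom for H3K9me2 and input, 8 for Lamin B1), and assume an equal spread. For the normalised H3K9me2 ratio the observed log2 SD was 0.69 in G9a-KO and 0.63 in control. Over the genotypes it ran from 0.51 in Suv39h1/2-DKO to 1.85 in G9a;Suv39h1/2;Setdb1-QKO, so the pooled SD also reflects wider spreads outside this comparison. Lot numbers are shared by all genotypes in the labels. After input correction, lot 7 was lowest for H3K9me2 in 8 of 8 genotypes, so lot was taken as a shared batch, and values are given by lot. The mean log2 deviation of lot 7 was −0.89 for this ratio and 0.29 for the inputs that divide it, so the inputs are part of that shift. The main intervals and the permutations of G9a-KO against control hold no lot term, and lot as a block is an alternative. The alternatives were no input, an input averaged over lots, the deposited scaling factor, medians, arithmetic means, lot as a block, and leaving out lots or libraries. The table holds no genes, so none is given a value. The comparison and its members were chosen with earlier results of these data known. The statistics were tested on simulated data. The intervals were tested there with 3 lots and an equal spread in all groups, so not with 2 lots or unequal spreads. Computation used numpy 2.4.6 and scipy 1.17.1 under Python 3.11.15, tables pandas 2.3.3, and figures matplotlib 3.10.9.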

Additional observations from a re-analysis of the deposited data

How the results depend on the processing

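Some alternatives equal the reported value by construction or repeat each other, and they are not counted here. The 4 comparisons of G9a-KO with control had 45 distinct other values, of which 0 changed direction. None passed the threshold, which the exact tests at these sizes cannot reach. Many of these values could not have changed direction. For H3K9me2, Lamin B1 and the difference between them, the groups did not overlap, so leaving out lots or libraries could not reverse them. Nor could medians or arithmetic means for H3K9me2 and Lamin B1. The inputs were lower in all 3 lots, so leaving out a whole lot could not reverse theirs. Leaving out lots or libraries gave −2.59 to −1.82 for H3K9me2, −0.68 to −0.18 for Lamin B1, −0.66 to −0.13 for the inputs and −2.26 to −1.53 for the H3K9me2 fall minus the Lamin B1 fall. With lot as a replicate block the log2 differences stay as they are (−2.19, −0.43, −0.43 and −1.89). The exact sign-flip p was 0.25 over 3 lots and 0.5 over 2, the smallest possible, and the intervals were −3.20 to −1.19, −1.19 to 0.34, −0.79 to −0.07 and −2.63 to −1.16. With the input ratio averaged over lots, Lamin B1 was −0.64 (95% interval −1.27 to 0.0036).

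Applying the inputs of 1 lot to all lots, chosen after seeing the data, gave −2.36, −1.61 and −2.61 for H3K9me2 and −0.81, −0.05 and −1.05 for Lamin B1 with the inputs of lots 1, 4 and 7.

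The differences between backgrounds had 42 distinct other values, of which 11 changed sign, none from a passed test. For 4OHT these were −0.12 (H3K9me2, no input), −0.80 (Lamin B1, no input) and −0.22 (Lamin B1, averaged input), and leaving out lots or libraries gave 0.14 to 0.88 for H3K9me2 and −0.56 to 0.76 for Lamin B1. For Suv39h1/2 they were −0.47 and −0.0512 (Lamin B1, no input and averaged input), and leaving out lots or libraries gave 0.62 to 1.75 for H3K9me2 and −0.41 to 0.69 for Lamin B1. With lot as a term, the Lamin B1 intervals were −0.98 to 1.19 for 4OHT and −0.94 to 1.23 for Suv39h1/2. Counting intervals were narrower than the spread between lots; an effect of depth beyond counting error was not tested. Medians of 2 lots equal their means and were not run for Lamin B1. Leaving out a lot of Lamin B1 leaves 1 pair, which has no test.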

Other observations

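The lot 4 inputs were the most uneven of the series. Over the 8 genotypes the highest input mouse to fly ratio exceeded the lowest 2.12-fold in lot 4, against 1.33-fold in lot 1 and 1.21-fold in lot 7. The highest and the lowest input of lot 4 came from the same line, 33-6: the ratio was 7.24 after 4OHT (Setdb1-KO) and 15.3 without it (control). In that lot the SG minus 33-6 input difference was −1.01 on the log2 scale without 4OHT and 0.63 after it. The 3S1G minus SE input difference of lot 4 was −0.17 without 4OHT and −0.09 after it. In lot 7 the SG minus 33-6 values were −0.01 and −0.07, and the 3S1G minus SE values were 0.02 and 0.26.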
